A study of Homo sapiens with 9 samples.

Results

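TNF, BCL3, IRAK2 and IER3 are 4 genes whose transcription responds to NF-kB, the transcription factor family that carries inflammatory signals to the nucleus. Their rows were taken by gene symbol from the platform annotation of the deposited value table, which gave 21 rows for these 4 of 14884 named genes. They were followed in the human monocytic leukaemia line THP-1 after PMA, a phorbol ester, had brought the cells to a macrophage-like state called M0. The treatments lasted 16 h and were 100 nM osimertinib, a covalent inhibitor of mutant epidermal growth factor receptors, 0.5 µM cisplatin, which crosslinks DNA through platinum, and vehicle. All 3 groups had been exposed to PMA, which itself activates protein kinase C and NF-kB, and all came from 1 cell line. Each group held 3 replicates that the labels call biological, with 1 Affymetrix Human Gene 2.0 ST array per replicate and 9 arrays in all. Whether the replicates were separate differentiations is not given in the sources used here, so their spread may be smaller than that between independent experiments.

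In resting cells NF-kB dimers are held in the cytoplasm by IkB proteins. Engagement of TNF receptors, interleukin-1 receptors or Toll-like receptors recruits adaptors and kinases that lead to the destruction of IkB, and the freed dimers then switch on cytokines, chemokines, survival genes and their own inhibitors. TNF is the founding cytokine of its family, a ligand that macrophages release and that activates NF-kB in turn. IRAK2 is a kinase-like protein of the Myddosome, the complex below Toll-like and interleukin-1 receptors, and it sustains late signalling there. BCL3 is an atypical IkB protein that works in the nucleus with p50 and p52 homodimers. IER3, also called IEX-1, is a short-lived immediate early protein that is induced by NF-kB, growth factors and stress and that modulates apoptosis and ERK signalling.

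The RefSeq promoter table (GRCh38.p14) held 3 of the 4 genes, TNF, BCL3 and IRAK2, and their windows are shown as a description. Each window has 300 bases and runs on the plus strand to 50 bases past the start site: chr6:31575315-31575614 for TNF, chr19:44748458-44748757 for BCL3 and chr3:10164669-10164968 for IRAK2. For BCL3 this start site lies inside the annotated gene, which begins upstream of the window at base 44747705. Capitals mark matches, searched on both strands, to the kB consensus, a decamer that NF-kB binds, and to the TATAAA box. The consensus was searched in 1 strict form: GGG, a purine, a pair of any bases, a pair of pyrimidines and CC.
TNF: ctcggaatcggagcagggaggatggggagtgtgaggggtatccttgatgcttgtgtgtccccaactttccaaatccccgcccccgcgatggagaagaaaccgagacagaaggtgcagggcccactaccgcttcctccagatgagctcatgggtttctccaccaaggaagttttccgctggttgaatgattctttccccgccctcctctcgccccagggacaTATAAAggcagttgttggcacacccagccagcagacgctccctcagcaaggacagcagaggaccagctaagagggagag
BCL3: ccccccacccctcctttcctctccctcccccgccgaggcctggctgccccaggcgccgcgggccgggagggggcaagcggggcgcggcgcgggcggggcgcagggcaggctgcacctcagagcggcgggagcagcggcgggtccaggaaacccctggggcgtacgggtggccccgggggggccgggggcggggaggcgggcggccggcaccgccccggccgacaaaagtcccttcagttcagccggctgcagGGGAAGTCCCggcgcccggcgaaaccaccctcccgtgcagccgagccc
IRAK2: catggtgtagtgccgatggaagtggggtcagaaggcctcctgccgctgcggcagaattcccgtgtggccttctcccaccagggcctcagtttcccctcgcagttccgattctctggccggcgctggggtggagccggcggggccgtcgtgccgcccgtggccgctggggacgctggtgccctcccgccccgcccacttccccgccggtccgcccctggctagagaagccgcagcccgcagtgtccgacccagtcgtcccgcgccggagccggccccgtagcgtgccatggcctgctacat
The kB consensus matched 1 place in the BCL3 window, from 3 to 12 bases past the start site, where the letters match on both strands, and no place in the TNF or IRAK2 windows. It was held by 11.3% of all 35116 promoter windows of this length. TATAAA was found in the TNF window, from -29 to -24, in neither of the others, and in 11.5% of all windows. TGACTCA, the site of AP-1, was in none of the 3 windows and in 4.95% of all. The GC content was 57.7% for TNF, 72.0% for IRAK2 and 80.0% for BCL3. Sites that depart from the strict form of the consensus were not searched for, so a window without a match may still hold such a kB site. These matches describe letters in the windows, and binding was not measured. A link between the matches and the differences given below was not tested.

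The deposited values lie on a scale that was read as log2, from 0.65 to 13.17, with array medians of 3.29 to 3.37. Of 53617 rows, 16098 carried 1 gene name each. For tests across genes the row with the highest mean stood for each gene, and the 7442 genes with a mean of at least 4.28 were fitted together with limma. With a Benjamini-Hochberg adjusted p under 0.05, 2277 genes (30.6%) were called for osimertinib against vehicle, 2308 (31.0%) for cisplatin against vehicle and 130 (1.75%) for osimertinib against cisplatin. The comparisons with vehicle share the same 3 vehicle arrays. Of 15 monocyte and macrophage markers 8 were named and 5 reached the limit, among them CD68, CSF1R, TYROBP and SPI1, while LYZ, MARCO and CD163 lay below it. Of 18 markers of lymphoid, erythroid, epithelial and stromal cells 7 were named, and KRT18, PECAM1 and NKG7 reached the limit. The mean level of the 8 named myeloid markers was 5.74 to 5.88 on the osimertinib arrays, 5.82 to 5.97 on the cisplatin arrays and 5.69 to 5.74 on the vehicle arrays. That of the 7 other markers was 4.32 to 4.47 on the osimertinib arrays, 4.43 to 4.46 on the cisplatin arrays and 4.32 to 4.38 on the vehicle arrays. Single markers moved in both directions. CD68 was 9.74 ± 0.028 with osimertinib, 9.95 ± 0.11 with cisplatin and 9.44 ± 0.063 with vehicle (SD, n = 3 each), and rose with osimertinib (0.30, limma adjusted p = 0.0012) and with cisplatin (0.51, adjusted p = 1.97e-05). CSF1R also rose with osimertinib (0.29, adjusted p = 0.00554) and with cisplatin (0.50, adjusted p = 1.05e-04). KRT18, an epithelial keratin, was 7.40 ± 0.099 with osimertinib, 7.36 ± 0.11 with cisplatin and 7.71 ± 0.20 with vehicle (SD, n = 3 each), and fell with osimertinib (-0.30, adjusted p = 0.0312) and with cisplatin (-0.35, adjusted p = 0.0154). Its osimertinib call was lost in 8 of the 15 alternative settings, with adjusted p up to 0.342, among them without vehicle replicate 1 (0.0638), vehicle replicate 2 (0.15) or osimertinib replicate 1 (0.12). Its cisplatin call was lost in 3, as the mean over its rows (0.251) and without vehicle replicate 2 (0.0782) or cisplatin replicate 2 (0.0656), whereas the calls of CD68 and CSF1R were kept in all 15. NKG7, a granule protein of killer lymphocytes, was 4.68 ± 0.22 with osimertinib, 4.73 ± 0.13 with cisplatin and 4.38 ± 0.11 with vehicle (SD, n = 3 each) and was not called with osimertinib (limma adjusted p = 0.0999) or cisplatin (0.0527). The other 4 markers that reached the limit, CD14, TYROBP, SPI1 and PECAM1, were not called with either drug. The part of either marker list in the differences given below was not tested. In bulk RNA, fewer cells that express a gene and less RNA per cell cannot be told apart.

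The 4 genes were chosen with the differences between these 3 groups already known, so their differences are given as a description with the standard error of the fit and without a test. IER3 and IRAK2 were lower with both drugs, and lower with osimertinib than with cisplatin. BCL3 was higher with both drugs to a similar extent. TNF differed between the groups by little more than the spread of its arrays.

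By the brightest row of each gene, IER3 had the widest differences of the 4. For cisplatin against vehicle this did not hold in the other rows of IER3, which reached -0.35, beside 0.37 for BCL3. In the 5 flat rows of IER3 described below, and in the mean over all 11 rows, it held in no contrast. In the brightest row of IER3 the log2 level was 6.66, 6.85 and 6.76 on the osimertinib arrays, 7.21, 7.23 and 7.26 on the cisplatin arrays, and 7.77, 7.83 and 7.44 on the vehicle arrays. No value of one group lay within the range of another, and the order from low to high was osimertinib, cisplatin, vehicle. The vehicle arrays were the most spread (7.68 ± 0.21, SD, n = 3), mainly through replicate 3, against 6.76 ± 0.095 for osimertinib and 7.23 ± 0.028 for cisplatin (n = 3 each). With osimertinib IER3 was 1.90-fold lower than with vehicle (log2 difference -0.92, SE 0.096). With cisplatin it was 1.37-fold lower than with vehicle (-0.45, SE 0.096). Between the drugs it was 1.39-fold lower with osimertinib (-0.47, SE 0.096).

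The array carries IER3 in 11 rows annotated to 1 RefSeq transcript, and these rows did not all behave alike. They held 4 distinct sets of values. A set of 4 rows with identical values had 6.63, 6.75 and 6.77 on the osimertinib arrays, 7.08, 7.19 and 7.17 on the cisplatin arrays, and 7.56, 7.62 and 7.29 on the vehicle arrays. A further single row had 6.65, 6.81 and 6.78 with osimertinib, 7.11, 7.28 and 7.19 with cisplatin, and 7.66, 7.64 and 7.35 with vehicle. With the brightest row, these 6 rows kept the same order of groups without overlap, with differences of -0.92 to -0.77 for osimertinib against vehicle and -0.45 to -0.34 for cisplatin against vehicle. The remaining 5 rows, again identical to one another, were flat. They read 4.45, 4.46 and 4.50 on the osimertinib arrays, 4.46, 4.46 and 4.44 on the cisplatin arrays, and 4.46 on each vehicle array, and 6 of the 9 values were equal to the last digit. Their differences were 0.0075 for osimertinib and -0.0070 for cisplatin against vehicle. Among all named rows, 347 (2.16%) had at least 6 equal values, and 403 (2.5%) repeated the values of another named row in full. The mean over all 11 rows therefore gave smaller differences, -0.44 for osimertinib against vehicle, -0.20 for cisplatin against vehicle and -0.23 between the drugs. This mean counts every copy of a repeated set, the flat values 5 times and the set of 4 rows 4 times, so its size depends on the copies. Where the probes of each row lie is not given in the sources used here. Rows with identical values are 1 measurement and not several.

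**Figure D1:**
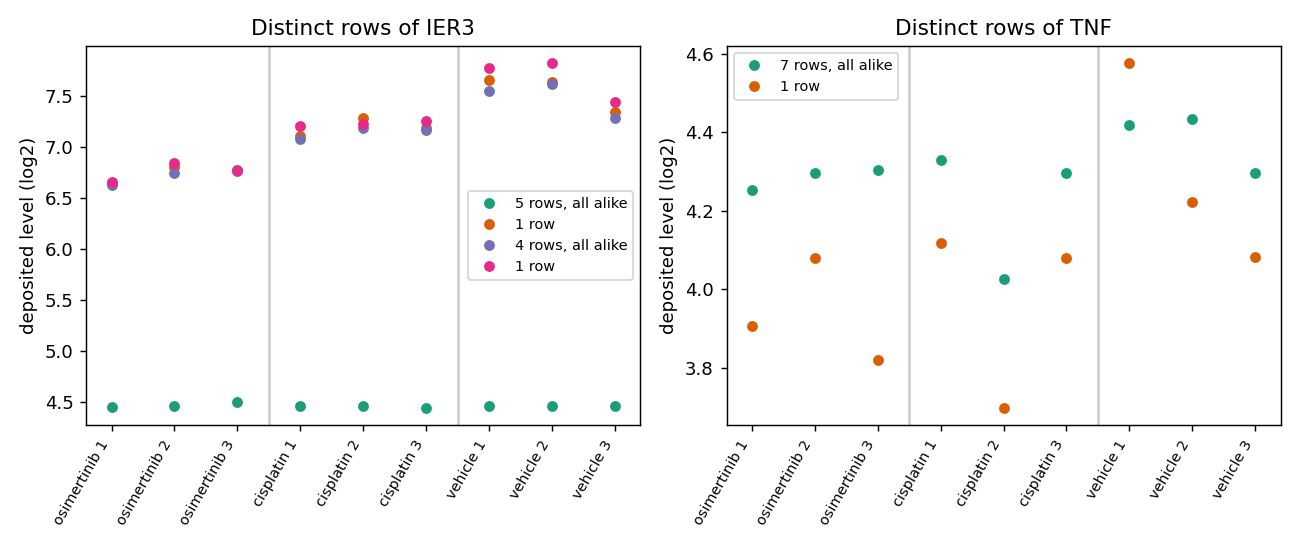
Levels (log2, y axis) of the distinct rows of IER3 (left) and TNF (right) on each array, with osimertinib, cisplatin and vehicle replicates from left to right; rows with identical values share a colour. For IER3, 6 rows step between the groups and 5 stay near 4.46; for TNF, 7 identical rows and 1 further row overlap between cisplatin and vehicle.

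IRAK2 was represented by 1 row, with levels of 5.95, 6.21 and 6.15 on the osimertinib arrays, 6.37, 6.36 and 6.43 on the cisplatin arrays, and 6.54, 6.70 and 6.90 on the vehicle arrays. As for IER3, the 3 groups did not overlap, and cisplatin lay between osimertinib and vehicle. The cisplatin arrays were close together (6.39 ± 0.035, SD, n = 3), whereas osimertinib (6.10 ± 0.14) and vehicle (6.71 ± 0.18, n = 3 each) were wider. IRAK2 was 1.53-fold lower with osimertinib than with vehicle (-0.61, SE 0.10) and 1.25-fold lower with cisplatin than with vehicle (-0.33, SE 0.10). The step between the drugs was 1.22-fold, lower with osimertinib (-0.29, SE 0.10). The gap between the highest cisplatin array and the lowest vehicle array, 6.43 and 6.54, was smaller than the range of the vehicle arrays.

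BCL3, also in 1 row, had levels of 5.59, 5.83 and 5.77 on the osimertinib arrays, 5.57, 5.59 and 5.78 on the cisplatin arrays, and 5.32, 5.22 and 5.28 on the vehicle arrays. Every treated array lay above every vehicle array, and the drugs overlapped with each other. The means were 5.73 ± 0.13 with osimertinib, 5.65 ± 0.12 with cisplatin and 5.27 ± 0.049 with vehicle (SD, n = 3 each). BCL3 was 1.37-fold higher with osimertinib than with vehicle (0.45, SE 0.10) and 1.29-fold higher with cisplatin than with vehicle (0.37, SE 0.10). The difference between the drugs, 0.082 (SE 0.10), was smaller than its standard error, and was 0.033 without osimertinib replicate 2 and 0.15 without osimertinib replicate 1.

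TNF was carried in 8 rows with 2 distinct sets of values. In the 7 identical rows the level was 4.25, 4.30 and 4.30 on the osimertinib arrays, 4.33, 4.03 and 4.30 on the cisplatin arrays, and 4.42, 4.43 and 4.30 on the vehicle arrays. All 3 groups overlapped, and osimertinib replicate 2, cisplatin replicate 3 and vehicle replicate 3 had the same value, 4.2971. The mean over the 9 arrays, 4.30, lay 0.015 above the limit for testing, so TNF only just entered the fit. The difference was -0.098 (SE 0.11) for osimertinib and -0.17 (SE 0.11) for cisplatin against vehicle. Without cisplatin replicate 2, the lowest array, the cisplatin difference was -0.070. Between the drugs it was 0.067 (SE 0.11), and -0.029 without that array. After quantile normalization the osimertinib difference was -0.0063 and the cisplatin difference -0.10, and with median centring the osimertinib difference was -0.035. The eighth row had 3.91, 4.08 and 3.82 on the osimertinib arrays, 4.12, 3.70 and 4.08 on the cisplatin arrays, and 4.58, 4.22 and 4.08 on the vehicle arrays. There the osimertinib arrays lay below the vehicle arrays by a margin of 4.0790 against 4.0818 between the nearest pair, with a difference of -0.36, and the cisplatin difference was -0.33.

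**Figure D2:**
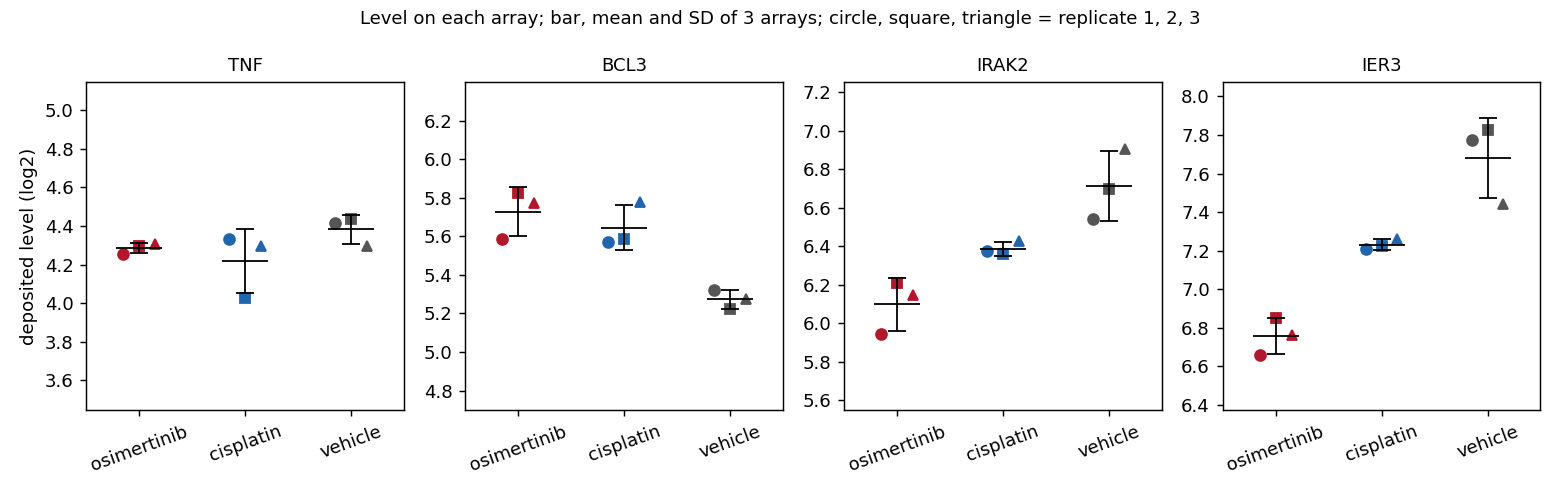
Level (log2, y axis) of the brightest row of each gene on every array, with osimertinib, cisplatin and vehicle from left to right; symbols are replicates, and the bar shows mean and SD of 3 arrays. IER3 and IRAK2 step up from osimertinib to cisplatin to vehicle without overlap, BCL3 is lowest with vehicle, and TNF overlaps in all groups; each panel spans the same 1.7 log2 units.

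Across the 4 genes, 1 was higher (BCL3) and 2 were lower (IRAK2 and IER3) without overlap with either drug against vehicle. Among all tested genes the groups did not overlap upwards in 24.6% and downwards in 19.5% for osimertinib against vehicle, and upwards in 22.5% and downwards in 19.8% for cisplatin against vehicle. For osimertinib against cisplatin 2 of the 4 were lower without overlap, beside 6.88% of all tested genes. Nothing is read from these counts, since the genes were chosen on these contrasts.

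**Figure D3:**
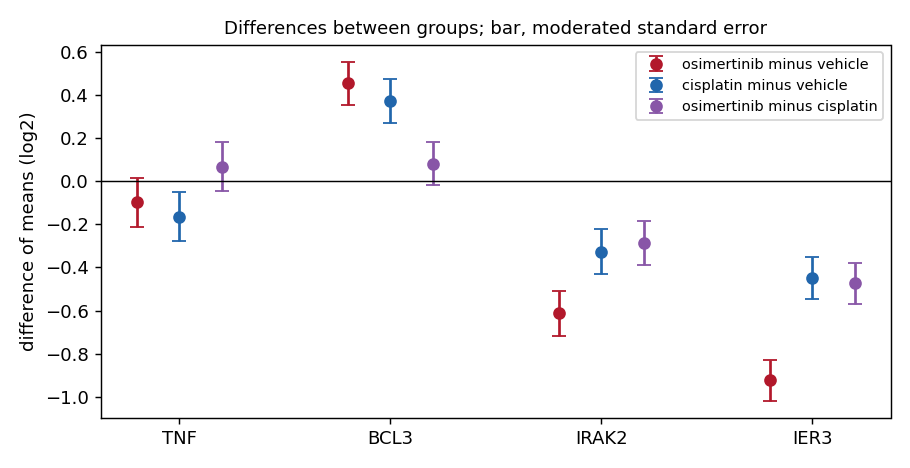
Differences of group means (log2, y axis) for the 4 genes, with bars for the moderated standard error. IER3 ranges from -0.92 for osimertinib against vehicle to -0.45 for cisplatin against vehicle, BCL3 is above 0 with both drugs, and the bars of TNF reach 0 or come near it.

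The genes around these 4 in the pathway were described with 8 lists ordered by role. They held 141 genes apart from the 4, of which the table named 86 and 70 reached the level limit. With osimertinib 13 of the 70 were called higher and 7 lower than with vehicle, 28.6% beside 30.6% of all tested genes, which were higher in 16.9% and lower in 13.7%. With cisplatin 13 were higher and 8 lower, 30.0% beside 31.0%, of which 16.5% higher and 14.5% lower. The median difference of the 70 genes was 0.064 with osimertinib and 0.016 with cisplatin, beside 0.037 (osimertinib) and 0.032 (cisplatin) over all tested genes. The shares called were thus near those of all tested genes. The count of lower genes with osimertinib was 3 without vehicle replicate 2, 3 without osimertinib replicate 2 and 4 without osimertinib replicate 3. Over all 7442 tested genes the lower counts there were 817, 801 and 842, beside 1022 with every array. With cisplatin the count was 4 without vehicle replicate 2, where 879 of all tested genes were lower, beside 1081 with every array. With quantile normalization on top, 24 genes were higher with osimertinib and 21 with cisplatin. Over all tested genes 2004 (osimertinib) and 1968 (cisplatin) were then higher, beside 1255 and 1227 in the deposited values.

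Of 15 ligands only IL18, an interleukin-1 family cytokine, was named. It stood at 0.46 (SE 0.17) with osimertinib and 0.20 (SE 0.17) with cisplatin against vehicle, neither of which was called. Of 6 tested receptors 1 was called in each comparison with vehicle, 16.7% beside 30.6% (osimertinib) and 31.0% (cisplatin) of all tested genes. TLR2, the receptor for bacterial lipoproteins, had levels of 7.23, 7.16 and 7.10 on the osimertinib arrays, 7.79, 7.84 and 7.84 on the cisplatin arrays, and 7.999, 8.02 and 7.94 on the vehicle arrays. The 3 groups stood in the same order as for IER3 and IRAK2, without overlap. How many of all tested genes stood in this order was not counted, so nothing is read from genes that share it. TLR2 fell with osimertinib (-0.82, SE 0.062, limma adjusted p = 7.6e-07) and was not called with cisplatin (-0.16, adjusted p = 0.0655). It was lower with osimertinib than with cisplatin (-0.66, adjusted p = 8.7e-05). TLR4, the lipopolysaccharide receptor, fell with cisplatin (-0.41, SE 0.11, adjusted p = 0.0109, and 0.0543 without vehicle replicate 2) and stood at 0.070 with osimertinib (adjusted p = 0.672). CD14, the lipopolysaccharide co-receptor, stood at 0.18 with osimertinib and 0.066 with cisplatin, and TLR1, a partner of TLR2, at 0.21 with osimertinib and 0.23 with cisplatin, with no call.

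Among 25 tested adaptors and kinases, 7 were higher and 2 lower with osimertinib, and 6 were higher and 1 lower with cisplatin. The share called was 36% with osimertinib and 28% with cisplatin, beside 30.6% and 31.0% of all tested genes. RIPK2, the kinase below NOD1 and NOD2, rose with osimertinib (0.77, SE 0.12, adjusted p = 2.98e-04) and with cisplatin (0.64, adjusted p = 0.00107). TICAM1, the adaptor of TLR3 and TLR4 also called TRIF, rose with osimertinib (0.37, adjusted p = 0.0156) and with cisplatin (0.54, adjusted p = 0.00138). The osimertinib call of TICAM1 was lost without vehicle replicate 1 (adjusted p = 0.0612) or osimertinib replicate 1 (0.0515). PELI1, a ubiquitin ligase that acts on IRAK proteins, rose with osimertinib (0.45, adjusted p = 0.00926) and with cisplatin (0.42, adjusted p = 0.014, and 0.0615 and 0.0624 without cisplatin replicates 2 and 3). FADD, the adaptor that links TNF family receptors to caspase-8, rose with osimertinib (0.64, adjusted p = 0.00376). With cisplatin FADD stood at 0.39 with an adjusted p of 0.0498, which was above 0.05 in 11 of 15 alternatives and reached 0.193 without cisplatin replicate 2. Of the other called members, TAB1, TAB2, MAP3K7, TRAF3 and UBE2N each lost a call in at least 4 of the 15 alternatives, with adjusted p up to 0.249. The related kinase IRAK1 stood at -0.16 with osimertinib (adjusted p = 0.195) and -0.23 with cisplatin (adjusted p = 0.0591). MYD88, the adaptor that gathers IRAK proteins into the Myddosome, stood at -0.19 with osimertinib and -0.096 with cisplatin and was not called.

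The 5 NF-kB subunit genes named, NFKB1, NFKB2, RELA, RELB and REL, were all tested, and limma called 0 of them with either drug. Over all tested genes 30.6% were called with osimertinib and 31.0% with cisplatin. At an unadjusted limma p under 0.05 there were 0 of the 5 for osimertinib and 1 for cisplatin. RELA stood at -0.12 (SE 0.067) with osimertinib and -0.15 with cisplatin, and NFKB1 at 0.028 (SE 0.11) with osimertinib and -0.13 with cisplatin. RELB stood at -0.093 with osimertinib and -0.22 with cisplatin, and REL at -0.053 with osimertinib and -0.066 with cisplatin. The differences of BCL3, the IkB protein that partners the products of NFKB1 and NFKB2, were larger in size than those of these 5 subunit genes with either drug. This comparison was not tested, and nothing is read from it, since BCL3 was chosen with its differences already known.

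Of 9 tested negative regulators, 2 were higher and 1 lower with osimertinib and 1 was higher and 1 lower with cisplatin. The share called was 33.3% with osimertinib and 22.2% with cisplatin, beside 30.6% and 31.0% of all tested genes. OTUD7B, a deubiquitinase also called Cezanne that restrains NF-kB, had levels of 7.74, 7.80 and 7.77 on the osimertinib arrays, 7.71, 8.03 and 7.93 on the cisplatin arrays, and 6.996, 6.98 and 7.03 on the vehicle arrays. It rose with osimertinib (0.77, SE 0.078, adjusted p = 1.05e-05) and with cisplatin (0.89, adjusted p = 3.0e-06). IRAK3, the IRAK protein that dampens Toll-like receptor signalling, fell with osimertinib (-0.26, SE 0.082, adjusted p = 0.0268) and with cisplatin (-0.32, adjusted p = 0.00945). The mean over all rows of IRAK3 gave -0.063 with osimertinib (adjusted p = 0.701) and -0.15 with cisplatin (adjusted p = 0.326), so neither call was kept there. The osimertinib call was also lost with median centring (0.121) and without vehicle replicate 1 (0.0625), vehicle replicate 2 (0.129) or osimertinib replicate 1 (0.0579), 2 (0.0607) or 3 (0.0727). The cisplatin call of IRAK3 was lost without vehicle replicate 2 (0.0528). ZC3H12A, an RNase that degrades cytokine transcripts, rose with osimertinib (0.36, adjusted p = 0.0181) and stood at 0.11 with cisplatin. Its call was lost without vehicle replicate 1 (0.0666), vehicle replicate 2 (0.0573) or osimertinib replicate 3 (0.0874). CYLD, another deubiquitinase, stood at 0.34 with osimertinib (adjusted p = 0.0662) and 0.11 with cisplatin.

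Of 6 tested genes that act on TNF mRNA or on TNF shedding, 1 was lower with osimertinib and 2 were lower with cisplatin. The share called was 16.7% with osimertinib and 33.3% with cisplatin, beside 30.6% and 31.0% of all tested genes. MAPKAPK2, the kinase that stabilises TNF mRNA below p38, fell with cisplatin (-0.32, SE 0.079, adjusted p = 0.00738) and with osimertinib (-0.24, adjusted p = 0.0317). The osimertinib call of MAPKAPK2 was lost in 8 of 15 alternatives, with adjusted p up to 0.137, among them without vehicle replicate 1 or 2 and without osimertinib replicate 2 or 3. TIMP3, an inhibitor of the TNF sheddase ADAM17, fell with cisplatin (-0.18, SE 0.045, adjusted p = 0.00934, but -0.050 with 0.652 as the mean over its rows, 0.0841 with median centring and 0.0939 without trend and robust fitting) and stood at -0.093 with osimertinib. ADAM17 itself stood at 0.018 with osimertinib and -0.030 with cisplatin (SE 0.048), and RHBDF2, which carries ADAM17 to the cell surface, at -0.16 with osimertinib and -0.10 with cisplatin, with no call.

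The 16 tested target genes went both ways, 3 higher and 2 lower with osimertinib and 5 higher and 3 lower with cisplatin. The share called was 31.2% with osimertinib and 50% with cisplatin, beside 30.6% and 31.0% of all tested genes. The lists were chosen with earlier results of these data known, so nothing is read from these shares. NAMPT, an enzyme of NAD synthesis that is also secreted, rose with osimertinib (1.00, SE 0.16, adjusted p = 3.34e-04) and with cisplatin (1.35, adjusted p = 3.12e-05). CD83, a surface protein of activated antigen-presenting cells, rose with osimertinib (0.58, SE 0.069, adjusted p = 3.8e-05) and with cisplatin (0.54, adjusted p = 7.0e-05). The 5 tested chemokines did not move together. CCL20 and CXCL8 fell with both drugs, CCL3 and CCL4 rose with cisplatin, and CXCL2 was not called with either. CXCL8 had levels of 6.04, 5.59 and 5.47 on the osimertinib arrays, 6.64, 6.71 and 6.71 on the cisplatin arrays, and 7.07, 7.17 and 7.29 on the vehicle arrays, the same order as IER3, IRAK2 and TLR2. Its difference was -1.47 (SE 0.12, adjusted p = 2.28e-06) with osimertinib and -0.49 (adjusted p = 0.00878) with cisplatin. CCL20 stood in that order too, with -1.36 (SE 0.12, adjusted p = 2.81e-06) for osimertinib and -0.58 (adjusted p = 0.00210) for cisplatin. CCL4 had levels of 5.36, 5.38 and 5.83 on the osimertinib arrays, 6.17, 6.29 and 6.25 on the cisplatin arrays, and 5.68, 5.89 and 5.18 on the vehicle arrays. It rose with cisplatin (0.65, SE 0.17, adjusted p = 0.00878) and stood at -0.058 with osimertinib (adjusted p = 0.828). CCL3 likewise rose with cisplatin (0.65, adjusted p = 0.0115) and stood at -0.0085 with osimertinib (adjusted p = 0.978). Each has a near-identical copy gene, so its level may include the copy. Both cisplatin calls were kept in the 15 alternatives, with adjusted p up to 0.0481 for CCL3 and 0.0399 for CCL4. Of the other tested genes that carry the immediate early response name, IER5 rose with osimertinib (0.55, SE 0.10, adjusted p = 9.32e-04) and with cisplatin (0.51, adjusted p = 0.00169), opposite in sign to IER3. IER2 stood at 0.057 with osimertinib and 0.066 with cisplatin, with no call. These genes were grouped with IER3 by name only.

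**Figure D4:**
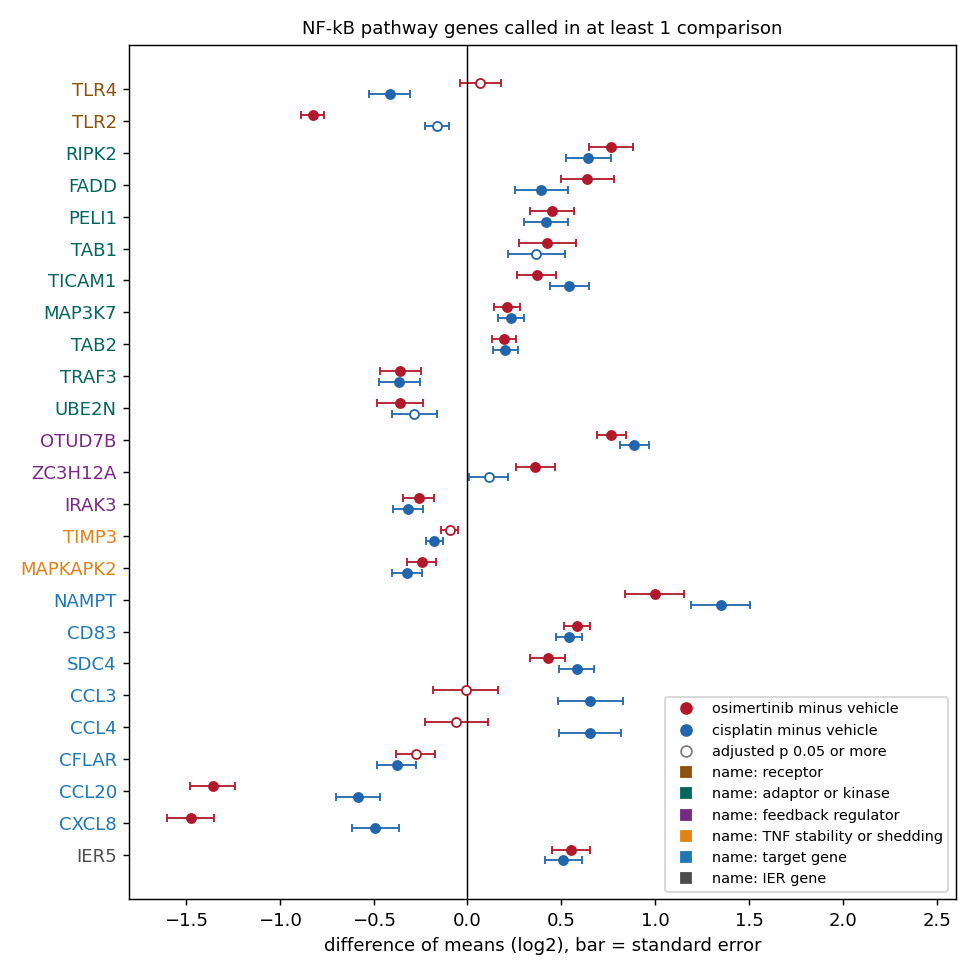
Differences from vehicle (log2, x axis, bars for the standard error) for the 25 pathway genes called in at least 1 comparison, with osimertinib drawn above cisplatin, open symbols for an adjusted p of 0.05 or more, and gene names coloured by role. RIPK2, OTUD7B, NAMPT, CD83 and IER5 lie above 0 with both drugs, and CXCL8 and CCL20 lie below 0, farther with osimertinib.

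For osimertinib against cisplatin, 5 of the 70 pathway genes were called, 7.14% beside 1.75% of all tested genes, 0.766% higher and 0.981% lower. The lists were chosen with earlier results of these data known, so nothing is read from this share. The 4 lower with osimertinib were CXCL8 (-0.98, adjusted p = 9.77e-04), TLR2 as given above, CCL20 (-0.77, adjusted p = 0.0038) and CCL4 (-0.71, adjusted p = 0.0487), and TLR4 was higher (0.48, adjusted p = 0.0405). CXCL8 and CCL20 were below vehicle with both drugs, whereas CCL4 was called above vehicle with cisplatin and not called with osimertinib. CXCL8, TLR2 and CCL20 stayed called in all 15 alternatives. The call of TLR4 was lost in 11 alternatives, among them each array left out except cisplatin replicate 2, with adjusted p up to 0.144. That of CCL4 was lost in 10, with adjusted p up to 0.184 without osimertinib replicate 1, and also without vehicle replicate 1, osimertinib replicate 2 or any cisplatin replicate.

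For each of the 4 genes, the 3 tested genes with the most similar levels over the 9 arrays were found by Pearson correlation. The correlations were taken over all 3 groups together, so differences between groups and within groups both enter them, and they are a description. For IER3 they were SNX9, a sorting nexin of endocytosis (r = 0.967), DOCK8, a guanine nucleotide exchange factor of leukocytes (0.965), and ENC1 (0.962). DOCK8 had 8.55, 8.57 and 8.57 on the osimertinib arrays, 8.72, 8.76 and 8.75 on the cisplatin arrays, and 8.94, 8.94 and 8.93 on the vehicle arrays, the same steps as IER3 with a smaller size. For IRAK2 they were the formin FHOD1 (0.969), ASB8 (0.959) and the nucleolar protein NCL (0.955). For BCL3 they were the microRNA gene MIR4519 (0.973), the rRNA methyltransferase NOP2 (0.970) and the interleukin-17 receptor IL17RA (0.964). IL17RA had 9.14, 9.21 and 9.15 with osimertinib, 8.99, 9.11 and 9.20 with cisplatin, and 8.84, 8.76 and 8.84 with vehicle. For TNF they were SAE1, a subunit of the SUMO-activating enzyme (0.939), the heat shock factor HSF4 (0.915) and UNC13A (0.913), and SAE1, like TNF, had its lowest value on cisplatin replicate 2, 4.81.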

How the data were processed

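Total RNA from 9 cultures was hybridised to 1 array each. Per the labels' protocols, sense cDNA was labelled with biotin, and the scans went through the standard Affymetrix pipelines of a service provider; the submitters' processing notes name Affymetrix Power Tools. The deposited values were read as log2 from their range; no source used here gives the background correction, summarization or log base, and another base would change the folds and not the calls. Whether the arrays had been normalized to one another before deposit is not given in the sources used here; quantile normalization on top moved the median difference over all tested genes to 0.11 for both drugs against vehicle, beside 0.037 (osimertinib) and 0.032 (cisplatin) in the deposited values.

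The annotation named 16098 rows with 1 gene and 0 with several, and left 37519 unnamed. Genes were tested with limma 3.58.1 (R 4.3.3), 1 mean per group (9 arrays, 6 residual degrees of freedom), with trended, robust empirical Bayes and two-sided p-values adjusted by Benjamini-Hochberg over 7442 genes within each of 3 contrasts; the fit was tested on simulated data. The 4 genes and the role lists were chosen with earlier results of these data known. Named are every row of the 4 genes, up to 4 genes per list with the smallest p against vehicle, and 3 similar genes per member, leaving out genes whose 3 values in any group are identical; other list members were picked with their values in view. The alternatives were quantile normalization, median centring, no level filter, no trend or robust fitting, the mean over rows, a replicate block, and each array left out. Arrays have no read depth; precision is limited by their number.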

Additional observations from a re-analysis of the deposited data

How the results depend on the processing

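The differences of BCL3, IRAK2 and IER3 kept their direction in each of the 15 alternatives and in each contrast, and so did that of TNF except -0.029 for osimertinib against cisplatin without cisplatin replicate 2. The only member values that moved by more than the spread of replicates were those of IER3 as the mean over all its rows. They were -0.44 for osimertinib against vehicle, -0.20 for cisplatin against vehicle and -0.23 for osimertinib against cisplatin. There, 5 identical flat rows enter the mean, each counted, so the size depends on the copies. On leaving out single arrays the difference of IER3 ran from -1.04 to -0.85 for osimertinib and from -0.57 to -0.38 for cisplatin against vehicle, and that of IRAK2 from -0.70 to -0.52 for osimertinib and from -0.41 to -0.23 for cisplatin. Pathway genes called higher were 24 (osimertinib) and 21 (cisplatin) with quantile normalization on top, and those called lower with osimertinib were 3 with median centring. Leaving out single arrays gave 3 to 8 lower with osimertinib and 4 to 10 lower with cisplatin. Over all tested genes it gave 801 to 1134 lower with osimertinib and 847 to 1062 lower with cisplatin. Between the drugs, the 1 pathway gene called higher became 0 with median centring, without the level filter, and without trend and robust fitting, and 0 to 1 on leaving out arrays. Over all genes, 130 calls between the drugs became 217 with quantile normalization, 85 with median centring, 76 without the level filter and 63 without trend and robust fitting, and 54 to 147 on leaving out arrays; the cause was not tested. For osimertinib against vehicle the split of 1255 higher and 1022 lower became 2004 and 932 with quantile normalization and 1536 and 734 with median centring, and for cisplatin the split of 1227 and 1081 became 1968 and 974 with quantile normalization. Between the drugs 57 higher and 73 lower became 48 and 37 with median centring. Whether replicates with the same number were handled together is not given in the sources used here. Deviations of same-numbered arrays correlated at -0.23 to 0.13, with 1 of 9 pairs over 0.1. For differently numbered arrays of different groups the range was -0.12 to 0.20, with 2 of 18 pairs over 0.1. With the replicate block 2145 genes were called for osimertinib against vehicle, 2155 for cisplatin against vehicle and 108 between the drugs.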
